A study of Mus musculus with 12 samples.

Results

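The enzymes and transporters of glycolysis, the subunits and oxygen sensors of the hypoxia-inducible factor (HIF), and a set of genes that HIF is known to induce were examined in mouse embryonic fibroblasts (MEFs) of 2 genotypes. The set named 37 genes by symbol or alias, and it was chosen with earlier results of these data known. Every non-control probe of the array carrying such a name was taken, with the brightest probe standing for each gene. Gapdh is not analysed here, and the other 36 genes entered the comparison out of 20836 genes measured in all. All 36 were well above background on each of the 12 arrays by the scanner's own call, and none was saturated. They were grouped by role: glucose entry (5 genes), the phosphofructokinase step and its regulators (6), aldolase to pyruvate (8), the fate of pyruvate and lactate (6), HIF subunits and oxygen sensors (4), and hypoxia and stress targets (7).

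MEFs of E12.5 embryos on a C57Bl/6 background gave total RNA, which was measured on 12 Agilent arrays in a single colour (Cy3), with 3 arrays in each of 4 groups. Wild-type (WT) cells and cells homozygous for the GR-C3 knockin were kept for 6 hours in vehicle or in 100 nM dexamethasone (Dex), which activates the glucocorticoid receptor (GR). In the knockin, a germline edit of exon 2 of Nr3c1, the GR gene, left the start codon of the GR-C3 isoform and mutated those of the other isoforms, and the line descends from 1 embryonic stem cell clone. Both genotypes came from intercrosses of knockin mice whose selection cassette had been removed with Flp recombinase. The labels call the samples biological replicates and do not name separate embryos or cultures behind them, so the p-values speak of spread among these samples, which may be technical, and the small number of arrays limits precision. The design asks what Dex does to the transcripts of each genotype and where the genotypes differ with and without it.

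Glycolysis splits glucose into pyruvate in the cytosol, and pyruvate is then burned in mitochondria or turned into lactate and exported. Where oxygen is short, the HIF alpha subunits escape hydroxylation by the Egln prolyl hydroxylases, pair with Arnt and bind a short core, ACGTG or GCGTG, in DNA near glycolytic genes, Slc16a3, Bnip3, Egln3 and others. Cultured fibroblasts rely on glycolysis for much of their energy, and glucocorticoids are known for changing glucose handling in many tissues.

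Because HIF acts through that core, the promoters of the 4 genes on which the results below turn are shown, as the 250 bases before the RefSeq transcription start in build GRCm38.p6, written 5′ to 3′ on the strand of the gene. Capitals mark each ACGTG or GCGTG on either strand, and on the opposite strand these read CACGT and CACGC. They are Egln3 at chr12:54203875-54204124 (minus strand), Slc16a3 at chr11:120948817-120949066 (plus strand), Hk2 at chr6:82774455-82774704 (minus strand) and Bnip3 at chr7:138909507-138909756 (minus strand).
Egln3: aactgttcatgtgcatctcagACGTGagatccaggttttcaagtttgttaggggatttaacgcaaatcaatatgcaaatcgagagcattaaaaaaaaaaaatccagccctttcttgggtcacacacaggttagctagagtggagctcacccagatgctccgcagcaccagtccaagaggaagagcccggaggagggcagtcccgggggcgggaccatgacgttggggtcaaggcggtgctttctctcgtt
Slc16a3: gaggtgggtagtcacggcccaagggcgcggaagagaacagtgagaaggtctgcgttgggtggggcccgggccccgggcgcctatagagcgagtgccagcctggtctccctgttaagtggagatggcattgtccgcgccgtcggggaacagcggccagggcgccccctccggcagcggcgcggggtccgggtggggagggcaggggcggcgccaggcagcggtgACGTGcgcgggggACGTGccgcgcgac
Hk2: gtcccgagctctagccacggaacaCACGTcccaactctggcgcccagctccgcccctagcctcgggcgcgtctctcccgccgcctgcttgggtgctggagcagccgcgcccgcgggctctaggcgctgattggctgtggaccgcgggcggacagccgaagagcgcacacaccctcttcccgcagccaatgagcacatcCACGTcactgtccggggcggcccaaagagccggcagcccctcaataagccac
Bnip3: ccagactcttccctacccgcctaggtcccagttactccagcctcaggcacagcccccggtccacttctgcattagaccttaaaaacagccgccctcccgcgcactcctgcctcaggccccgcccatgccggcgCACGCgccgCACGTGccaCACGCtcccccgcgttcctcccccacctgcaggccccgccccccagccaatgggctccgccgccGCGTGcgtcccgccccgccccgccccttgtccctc
Egln3 held 1 core, 229 bases before its start. Slc16a3 held 2, the nearer of them 14 bases before the start, and Hk2 also held 2, at 226 and 52 bases. Bnip3 held 5 matches, of which 2 are the same palindromic CACGTG read on each strand. RefSeq promoters were found for 33 of the 36 genes and not used here for Epas1, Hmox1 and Slc2a3. Of the 33 genes, 30 (90.9%) held ACGTG or GCGTG in at least 1 promoter, against 41.5% of all 27025 genes with a promoter. Counted by promoter, the shares were 76% of the 50 promoters of the set and 38.6% of all promoters. Known HIF targets are in the set by choice, so these shares describe that choice and are not a result of the arrays. ACGTG alone occurred in 63.6% of the 33 genes against 18.5% of all genes, and GCGTG in 63.6% against 30.9%. The promoters of the set were also richer in CpG, with a median of 14 per 250 bases against 6 over all 32851 promoters. Neither motif nor CpG content was measured by the arrays, and a match is a description of the letters, not a binding site.

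Each level is a log2 signal minus its array's 75th percentile, and differences are log2 values ± SE from a limma fit with Benjamini-Hochberg adjusted p-values over all 20836 genes, called where the adjusted p was under 0.05. A level compares arrays for 1 probe and is not comparable between genes. The array labelled WT vehicle replicate 1 lay apart from its group and near the Dex-treated arrays. Tsc22d3, a leucine zipper gene induced by glucocorticoids, lay at 5.31 on it, at 2.18 and 1.99 on WT vehicle replicates 2 and 3, and at 5.05, 4.93 and 4.55 on the WT Dex arrays. It was also alone on its slide and scan day. Values are therefore given from the 11 other arrays, with counts from 12 arrays and the values of changed calls beside them. Slides 2, 3 and 4 held WT vehicle with 1 WT Dex array, WT Dex with GR-C3 vehicle, and the last GR-C3 vehicle array with GR-C3 Dex, and no slide held both genotypes under the same treatment. Fits with slide as a block therefore link the genotypes through the Dex effect, and calls of the 36 genes that this block ends are named with their values. Under vehicle this link runs through the 1 WT Dex array of slide 2, and under Dex through the 1 GR-C3 vehicle array of slide 4. The further gene lists were not fitted with this block.

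Under vehicle, and without a term for slide, GR-C3 cells had more transcript of much of the glycolytic chain than WT cells. Of the 36 genes, 15 were higher in GR-C3 and 1 was lower, which is 44.4% called against 27.3% of all genes. The background for higher calls was 16.2% of all genes and that for lower calls 11.1%. The median difference over the set was 0.21, against 0.12 over all genes. With all 12 arrays, 12 were higher and 2 lower (38.9%, against 24.8% of all genes, 14.6% higher and 10.2% lower), and the median was 0.13 against 0.11. By role, the higher calls were 4 of 5 genes of glucose entry, 2 of 6 of the phosphofructokinase step, 5 of 8 from aldolase to pyruvate, 2 of 6 acting on pyruvate and lactate, 1 of 4 HIF and sensor genes and 1 of 7 hypoxia targets. Under Dex, 13 genes were higher and 4 lower in GR-C3 (47.2%, close to the 40.7% of all genes, of which 24.6% were higher and 16.1% lower). With 12 arrays these were 9 and 2 (30.6%, close to the 29.6% of all genes, 17.5% higher and 12.1% lower). Quantile normalization turned the split of calls toward lower ones, to 13 higher and 5 lower under vehicle and 11 and 7 under Dex. It ended the genotype calls of Gpi1, Ldha and Pgam1 under vehicle and those of Eno1 and Pgam1 under Dex. The split over all genes moved the same way. Under vehicle it went from 3367 higher and 2320 lower to 3090 and 2830, and under Dex from 5126 and 3357 to 4455 and 4139.

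The 2 genotype comparisons use different arrays and share an estimate of spread, but they are not independent. Slide 3 held arrays of both, and the knockin line descends from 1 clone. The labels do not say whether vehicle and Dex samples shared embryos or cultures. Of the 16 genes called under vehicle and the 17 called under Dex, 12 were called in both with the same sign, and none in opposite directions. That is 75% of the vehicle calls and 70.6% of the Dex calls of the set, beside 74.1% and 49.7% of such calls over all genes, of which 20.2% were called in both with the same sign (33.3% of the set). These were Egln3, Slc16a3, Slc2a1, Slc2a3, Hk2, Pfkfb4, Pgk1, Pgam1, Eno1, Pkm and Ldha, all higher in GR-C3, and Bnip3, lower in GR-C3. Under the slide block, 3 calls remained under vehicle (Egln3, Slc16a3 and Hk2) and 4 under Dex (those 3 and Bnip3). In that fit 7.82% of all genes were called under vehicle and 15.5% under Dex, so the set was called about as often as other genes under vehicle and no more often under Dex, with medians of 0.051 and 0.0081 against -0.035 and -0.022 over all genes. With normexp background correction in place of the scanner's own, Slc16a3 was the single call under vehicle, and Slc16a3, Hk2 and Pfkfb4 were the 3 under Dex, where 1.4% and 4.09% of all genes were called.

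**Figure D1:**
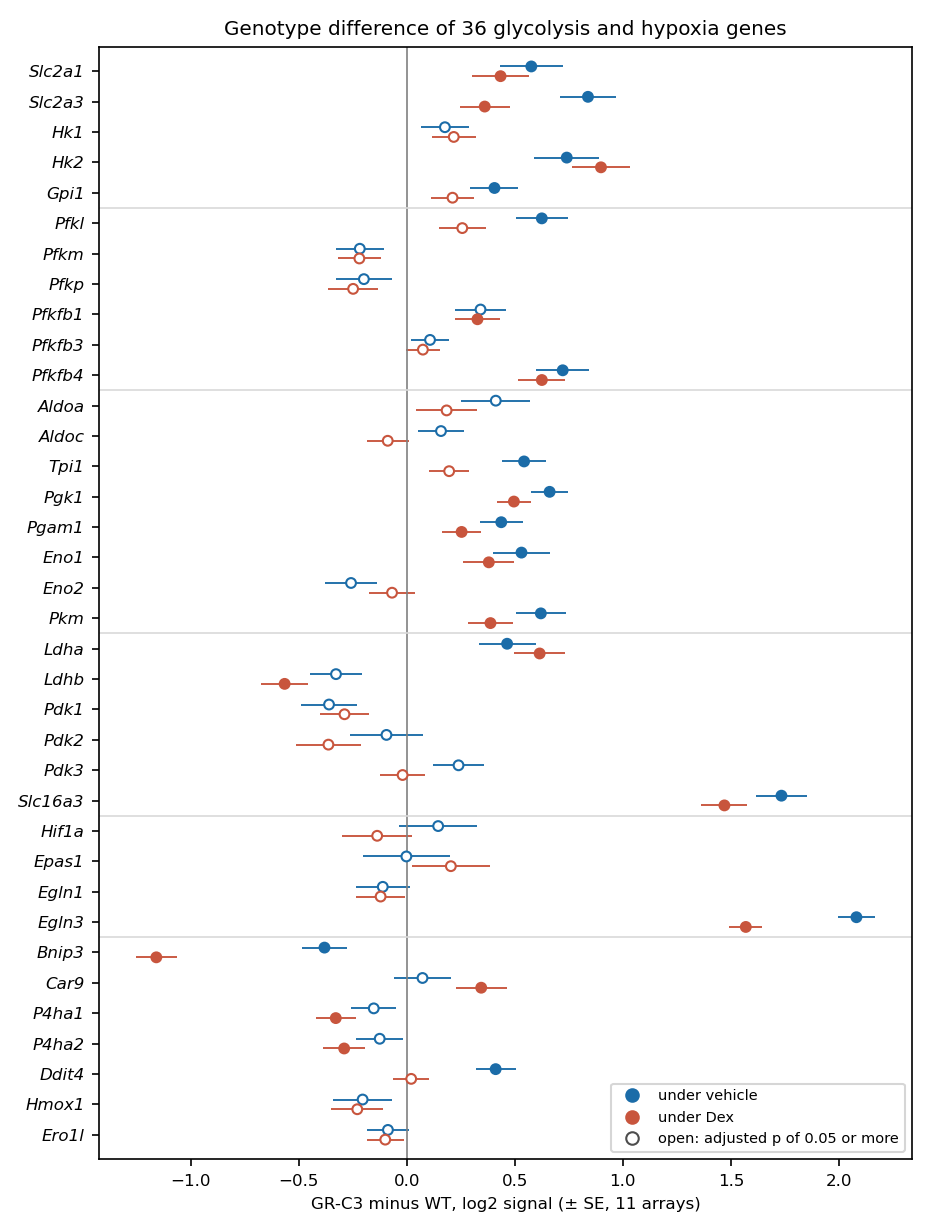
Log2 difference between GR-C3 and WT cells for the 36 genes, under vehicle (blue) and under Dex (red), from the 11 arrays; points are estimates, bars are SE, filled points passed an adjusted p of 0.05, and grey lines separate the roles. Egln3 and Slc16a3 lie farthest to the right under both treatments, between 1.47 and 2.08, and Bnip3 lies farthest to the left under Dex at -1.16.

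Egln3, the oxygen-sensing prolyl hydroxylase PHD3 and itself a HIF target (probe at chr12:52198570-52198629, build mm7), showed the largest genotype difference of the set. It lay at -3.34 and -3.25 on WT vehicle replicates 2 and 3, at -3.17 on the array set apart, and at -2.94, -2.92 and -2.92 in WT Dex. In GR-C3 cells it lay at -1.18, -1.24 and -1.22 under vehicle and -1.47, -1.28 and -1.32 under Dex. All GR-C3 arrays lay above all WT arrays, with no overlap, and the WT Dex arrays lay above each of the WT vehicle arrays. GR-C3 exceeded WT by 2.08 ± 0.086 under vehicle (4.23-fold, adjusted p = 4.5e-07) and by 1.57 ± 0.077 under Dex (2.97-fold, adjusted p = 5.88e-07). With slide as a block the differences were 2.06 (adjusted p = 0.000538) and 1.57 (adjusted p = 0.000973), and with normexp background correction 1.77 (0.19) and 0.20 (0.727), neither called. On slide 3, where 2 GR-C3 vehicle arrays met 2 WT Dex arrays, they differed by 1.71. The block value under vehicle is this difference plus 0.35, the WT Dex difference within slide 2, so it is not a separate check.

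By its brightest probe, no other HIF or sensor gene passed the test between the genotypes. Hif1a, the oxygen-regulated alpha subunit (chr12:71899015-71899075, mm7), lay at 1.75 and 1.86 on WT vehicle replicates 2 and 3, at 2.29 on the array set apart and at 2.33, 1.89 and 2.27 in WT Dex. In GR-C3 it lay at 1.82, 1.79 and 2.23 under vehicle and 2.25, 2.00 and 1.83 under Dex. The genotypes overlapped under both treatments, with differences of 0.15 ± 0.18 under vehicle (adjusted p = 0.576) and -0.14 ± 0.16 under Dex (adjusted p = 0.525). Epas1, the HIF-2 alpha subunit, differed by -0.0018 under vehicle (SE 0.20, adjusted p = 0.995), and a dimmer probe of Epas1 was lower in GR-C3 under Dex (-1.10, adjusted p = 0.0101). Egln1, the main oxygen sensor of most cells, differed by -0.11 ± 0.12 (adjusted p = 0.532). HIF alpha is controlled mainly at the protein level, which was not measured.

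Among the genes of glucose entry, Slc2a1 and Slc2a3 encode the glucose transporters GLUT1 and GLUT3, and Hk2 the inducible hexokinase that traps glucose as its phosphate. Hk2 (chr6:82750613-82750672, mm7) lay at 1.88 and 1.64 on WT vehicle replicates 2 and 3, 1.66 on the array set apart and 1.74, 1.59 and 1.22 in WT Dex. GR-C3 arrays of Hk2 lay at 2.51, 2.57 and 2.42 under vehicle and at 2.29, 2.52 and 2.44 under Dex. Each GR-C3 array exceeded each WT array. Hk2 was higher in GR-C3 by 0.74 ± 0.15 under vehicle (1.67-fold, adjusted p = 0.00589) and by 0.90 ± 0.14 under Dex (1.86-fold, adjusted p = 0.000701). Under the slide block these became 1.11 (adjusted p = 0.0304) and 1.12 (adjusted p = 0.0168), and without WT vehicle replicate 3 the vehicle call was lost.

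Slc2a3 (chr6:122764878-122764937, mm7) had the larger vehicle difference of these transporters without the slide block and the smaller one with it (0.55, against 0.93 for Slc2a1). It lay at -2.43 and -2.49 on WT vehicle replicates 2 and 3, -2.02 on the array set apart, -2.11, -1.79 and -1.84 in WT Dex, -1.48, -1.74 and -1.64 in vehicle-treated GR-C3 cells and -1.71, -1.52 and -1.43 with Dex. The groups did not overlap between genotypes at either treatment. Slc2a3 was higher in GR-C3 by 0.84 ± 0.13 under vehicle (adjusted p = 0.00127) and by 0.36 ± 0.12 under Dex (adjusted p = 0.0325; 0.0879 with 12 arrays), and the Dex difference had the opposite sign with normexp background correction (-0.29). Slc2a1 (chr4:118513698-118513757, mm7) lay at 2.86 and 2.71 on WT vehicle replicates 2 and 3, 3.70 on the array set apart, 3.23, 3.12 and 2.68 in WT Dex, 3.34, 3.43 and 3.31 in vehicle-treated GR-C3 cells and 3.44, 3.44 and 3.46 with Dex. The array set apart was the highest of all 12 for Slc2a1, and the vehicle difference was 0.58 without it (SE 0.15, adjusted p = 0.0161) and 0.27 with it (adjusted p = 0.417). Under Dex Slc2a1 was higher in GR-C3 by 0.43 ± 0.13 (adjusted p = 0.0245; 0.166 with 12 arrays). Gpi1, the isomerase that makes fructose phosphate, was higher in GR-C3 under vehicle by 0.41 ± 0.11 (adjusted p = 0.0229), and Hk1, the constitutive hexokinase, differed by 0.18 ± 0.11 (adjusted p = 0.273).

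Phosphofructokinase commits sugar to glycolysis, and the Pfkfb enzymes set the level of its activator, fructose-2,6-bisphosphate. Pfkfb4 (chr9:108742376-108742435, mm7) lay at 0.77 and 0.54 on WT vehicle replicates 2 and 3, 0.56 on the array set apart, 0.68, 0.96 and 0.65 in WT Dex, 1.29, 1.46 and 1.38 in vehicle-treated GR-C3 cells and 1.44, 1.32 and 1.41 with Dex. All GR-C3 arrays were above all WT arrays, by 0.72 ± 0.12 under vehicle (1.65-fold, adjusted p = 0.00205) and 0.63 ± 0.11 under Dex (adjusted p = 0.00161). Pfkl, the liver-type phosphofructokinase (chr10:77642785-77642844, mm7), lay at 1.01 and 0.89 on WT vehicle replicates 2 and 3, 1.58 on the array set apart, 1.26, 1.56 and 1.55 in WT Dex, 1.64, 1.58 and 1.51 in vehicle-treated GR-C3 cells and 1.56, 1.81 and 1.77 with Dex. The 2 WT vehicle arrays were the lowest of all, and the array set apart lay among the GR-C3 vehicle arrays. Pfkl was higher in GR-C3 under vehicle by 0.62 ± 0.12 (adjusted p = 0.00439), a call absent with 12 arrays (0.41, adjusted p = 0.101). The muscle and platelet forms, Pfkm and Pfkp, differed by -0.22 and -0.20 under vehicle, and neither passed the test (adjusted p = 0.177 and 0.279). Pfkfb1 was higher in GR-C3 under Dex by 0.33 ± 0.10 (adjusted p = 0.0309; -0.040 with normexp). Pfkfb3, the form known for strong hypoxic induction, differed by 0.11 under vehicle and 0.07 under Dex (adjusted p = 0.396 and 0.479).

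In the lower part of the pathway 5 of 8 genes were higher in GR-C3 under vehicle (62.5%, against 16.2% of all genes called higher). None of these 5 calls held with slide as a block. Pgk1, which makes the earliest ATP of the pathway (chrX:101530787-101530846, mm7), lay at 5.99 and 5.91 on WT vehicle replicates 2 and 3, 6.00 on the array set apart, 6.04, 6.22 and 6.08 in WT Dex, 6.61, 6.62 and 6.60 in vehicle-treated GR-C3 cells and 6.56, 6.60 and 6.66 with Dex. The GR-C3 arrays formed a narrow band above all WT arrays. The difference was 0.66 ± 0.087 under vehicle (1.58-fold, adjusted p = 0.000488) and 0.50 ± 0.078 under Dex (adjusted p = 0.0009), and with slide as a block 0.55 (adjusted p = 0.0569) and 0.47 (adjusted p = 0.0562). Pkm, the pyruvate kinase of the last step (chr9:59705879-59705938, mm7), lay at 4.80 and 4.54 on WT vehicle replicates 2 and 3, 4.66 on the array set apart, 4.72, 4.96 and 5.01 in WT Dex, 5.33, 5.33 and 5.22 in vehicle-treated GR-C3 cells and 5.22, 5.32 and 5.32 with Dex. Again no WT array reached the GR-C3 range, and the differences were 0.62 ± 0.12 (adjusted p = 0.00382) and 0.39 ± 0.10 (adjusted p = 0.0155).

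Eno1, an enolase (chr4:149233567-149233792, mm7), lay at 1.83 and 1.91 on WT vehicle replicates 2 and 3, 1.63 on the array set apart, 2.00, 2.01 and 2.35 in WT Dex, 2.47, 2.33 and 2.41 in vehicle-treated GR-C3 cells and 2.62, 2.55 and 2.33 with Dex. The genotypes were apart under vehicle (0.53 ± 0.13, adjusted p = 0.0151) and overlapped under Dex, where the difference was 0.38 ± 0.12 (adjusted p = 0.0286). Tpi1, which interconverts the triose phosphates (chr6:124837320-124837379, mm7), lay at 4.59 and 4.63 on WT vehicle replicates 2 and 3, 4.94 on the array set apart, 4.70, 4.82 and 4.98 in WT Dex, 5.11, 5.12 and 5.24 in vehicle-treated GR-C3 cells and 5.11, 5.02 and 4.97 with Dex. It was higher in GR-C3 under vehicle by 0.54 ± 0.10 (adjusted p = 0.0038) and under Dex the groups overlapped (0.20, adjusted p = 0.11). With slide as a block the vehicle difference of Tpi1 was 0.30 (adjusted p = 0.275). Pgam1, the phosphoglycerate mutase (chr19:41812247-41812306, mm7), lay at 6.02 and 5.92 on WT vehicle replicates 2 and 3, 6.04 on the array set apart, 5.98, 6.25 and 6.15 in WT Dex, 6.40, 6.44 and 6.39 in vehicle-treated GR-C3 cells and 6.46, 6.38 and 6.30 with Dex. All its GR-C3 values exceeded all its WT values, by 0.44 ± 0.10 under vehicle (adjusted p = 0.0101) and 0.25 ± 0.089 under Dex (adjusted p = 0.0458; 0.0712 with 12 arrays). With 11 arrays the call of Pgam1 under Dex was kept in 4 of the 20 alternatives tried. The neuronal enolase Eno2 differed by -0.26 under vehicle (adjusted p = 0.139) and Aldoa, the muscle-type aldolase, by 0.41 (adjusted p = 0.0813), while a dimmer probe of Aldoa was higher by 0.60 (adjusted p = 0.0235).

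Slc16a3, the lactate exporter MCT4 (chr11:121067754-121067813, mm7), showed the second largest genotype difference under vehicle. It lay at -0.03 and -0.11 on WT vehicle replicates 2 and 3, at 0.60 on the array set apart and at -0.01, 0.35 and 0.01 in WT Dex. In GR-C3 it lay at 1.56, 1.70 and 1.73 under vehicle and 1.60, 1.60 and 1.56 under Dex. No WT array reached the GR-C3 range, and the difference was 1.73 ± 0.12 under vehicle (3.33-fold, adjusted p = 6.82e-06) and 1.47 ± 0.11 under Dex (2.77-fold, adjusted p = 6.02e-06). Under the slide block the values were 1.51 (adjusted p = 0.00466) and 1.30 (adjusted p = 0.00468).

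The lactate dehydrogenase genes differed between genotypes in opposite directions under Dex. Ldha, whose subunit favours the making of lactate from pyruvate (chr7:43031720-43031779, mm7), lay at 6.76 and 6.56 on WT vehicle replicates 2 and 3, 6.45 on the array set apart, 6.54, 6.74 and 6.29 in WT Dex, 7.15, 7.19 and 7.03 in vehicle-treated GR-C3 cells and 7.21, 7.14 and 7.07 with Dex. Every GR-C3 array was above every WT array, by 0.46 ± 0.13 under vehicle (adjusted p = 0.0267) and 0.61 ± 0.12 under Dex (1.53-fold, adjusted p = 0.00281). Ldhb, whose subunit favours the reverse reaction (chr6:142578009-142578068, mm7), lay at 4.83 and 4.75 on WT vehicle replicates 2 and 3, 5.18 on the array set apart, 4.83, 5.23 and 4.96 in WT Dex, 4.47, 4.57 and 4.36 in vehicle-treated GR-C3 cells and 4.39, 4.47 and 4.46 with Dex. All GR-C3 arrays were below all WT arrays. The difference for Ldhb was -0.57 ± 0.11 under Dex (adjusted p = 0.00292) and -0.33 ± 0.12 under vehicle, which passed the test with 12 arrays (adjusted p = 0.0337) and not with 11 (adjusted p = 0.0735). With slide as a block neither Ldha nor Ldhb was called (adjusted p under Dex = 0.0657 for Ldha and 0.09 for Ldhb). The pyruvate dehydrogenase kinases Pdk1, Pdk2 and Pdk3, which hold pyruvate back from mitochondria, were not called in any comparison, with vehicle differences of -0.36, -0.09 and 0.24 (adjusted p = 0.0644, 0.702 and 0.161).

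Among the 7 hypoxia and stress targets, which act outside glycolysis, the median difference between genotypes was -0.13 under vehicle and -0.23 under Dex, with 1 gene higher and 1 lower under vehicle and 1 higher and 3 lower under Dex. The vehicle share of 28.6% called lay at the 27.3% of all genes, the Dex share was 57.1% against 40.7%, and the medians of all genes were 0.12 and 0.13. Bnip3, which tags mitochondria for mitophagy (chr7:135295711-135295770, mm7), lay at 1.51 and 1.54 on WT vehicle replicates 2 and 3, at 2.47 on the array set apart and at 2.56, 2.66 and 2.72 in WT Dex. In GR-C3 it lay at 1.10, 1.05 and 1.27 under vehicle and 1.36, 1.55 and 1.55 under Dex. The WT Dex arrays lay above all others with the array set apart just under them, and the GR-C3 vehicle arrays lay below both WT vehicle replicates 2 and 3. GR-C3 differed from WT by -0.38 ± 0.10 under vehicle (adjusted p = 0.0232) and by -1.16 ± 0.094 under Dex (2.23-fold lower, adjusted p = 1.31e-05). Under the slide block these were -0.58 (adjusted p = 0.0638) and -1.40 (adjusted p = 0.00159).

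Ddit4, the stress-induced inhibitor of mTORC1 also known as Redd1 (chr10:59467933-59467992, mm7), lay at 4.49 and 4.50 on WT vehicle replicates 2 and 3, 5.12 on the array set apart, 4.71, 4.90 and 4.70 in WT Dex, 4.85, 4.98 and 4.90 in vehicle-treated GR-C3 cells and 4.81, 4.83 and 4.74 with Dex. The array set apart was the highest of the 12. Without it GR-C3 exceeded WT under vehicle by 0.41 ± 0.093 (adjusted p = 0.00944), with it by 0.20 (adjusted p = 0.377), and under Dex the genotypes overlapped. The collagen prolyl hydroxylases P4ha1 and P4ha2 were lower in GR-C3 under Dex, with differences of -0.33 ± 0.093 and -0.29 ± 0.097 (adjusted p = 0.0192 and 0.0384), and the carbonic anhydrase gene Car9 was higher by 0.34 ± 0.12 (adjusted p = 0.0407). None of these 3 calls was made with 12 arrays or with slide as a block, where Car9 had the opposite sign (-0.063). With normexp background correction Car9 and P4ha2 both changed sign (-0.29 and 0.21). Hmox1, the haem oxygenase, and Ero1l, an oxidase of protein folding, were not called in any comparison and differed by -0.20 and -0.09 under vehicle (adjusted p = 0.286 and 0.528). Dimmer probes gave other values for Ero1l, which was lower in GR-C3 under vehicle (-0.96, adjusted p = 0.00566), and for P4ha1 under Dex (0.06, adjusted p = 0.773).

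**Figure D2:**
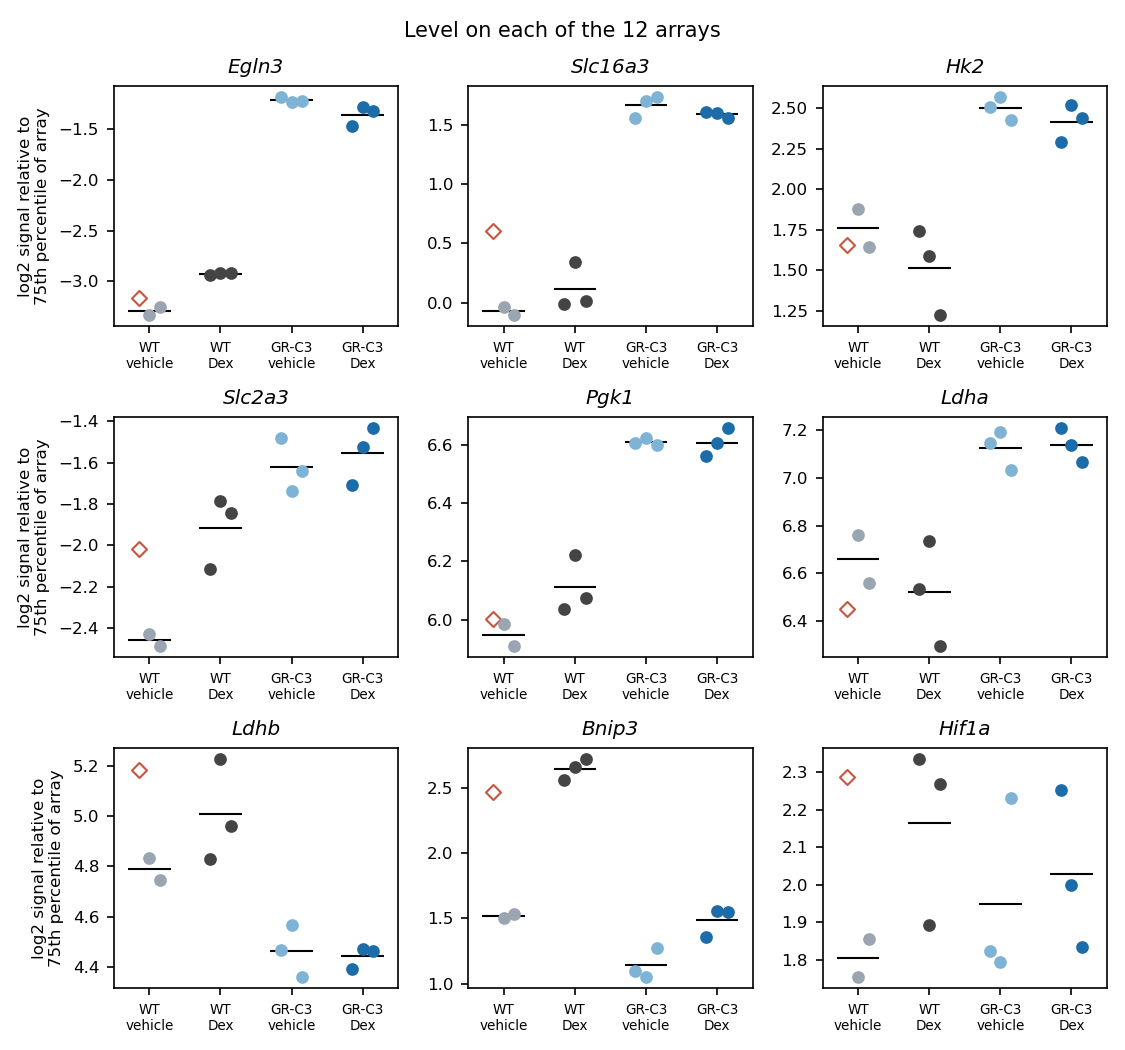
Level of 9 of the genes on each of the 12 arrays, as log2 signal minus that array's 75th percentile, with a separate vertical scale for each gene; circles are arrays, black bars are group means, and the open red diamond is the array labelled WT vehicle replicate 1, left out of its group's mean. Egln3, Slc16a3, Hk2, Slc2a3, Pgk1 and Ldha show GR-C3 arrays above WT arrays, Ldhb shows the reverse, the WT Dex arrays of Bnip3 lie between 2.56 and 2.72, and the groups of Hif1a overlap.

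Some cell type markers also differed between the genotypes, and under vehicle the neural list was called furthest above all genes. All 10 fibroblast markers were well above background in all groups, with summed linear signals of 696 to 945 times the 75th percentile, and 3 of the 10 were called between genotypes under vehicle (30%, near the 27.3% of all genes). Of the neural markers Sox10, Nes, Gfap, Tubb3 and Elavl3, whose summed signal was 4.89 to 6.43 on WT arrays and at least 10.9 on GR-C3 arrays, 4 were kept in the fit. Of these, 3 were called under vehicle (75%, against 27.3% of all genes) and all 4 under Dex (against 40.7% of all genes). Nes, Sox10 and Gfap were higher in GR-C3 under vehicle, by 1.71 ± 0.14, 1.39 ± 0.16 and 1.11 ± 0.19 (adjusted p = 1.96e-05, 0.000203 and 0.00245). Epithelial markers summed to 0.626 to 0.884 against 1.81 to 2.61 and endothelial markers to 0.561 to 0.787 against 1.73 to 2.3, while Cdh1, Cdh5 and Tie1 were not well above background in any group. Under vehicle 1 of 4 epithelial markers in the fit, Krt18 (2.15, adjusted p = 4.37e-06), and 1 of 3 endothelial ones, Emcn (2.01, adjusted p = 1.56e-06), were called, and the list medians were 0.37 and 0.26. These shares, 25% and 33.3%, lay near the 27.3% of all genes. Under Dex 2 epithelial markers were higher and 1 lower in GR-C3 (75%), and 1 endothelial marker was higher (33.3%), against 40.7% of all genes. Blood and macrophage markers summed to 0.71 to 0.927 over all groups. In bulk RNA a change in the share of a cell type and a change in RNA per cell cannot be told apart, and the part of these cells in the genotype differences was not tested.

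**Figure D3:**
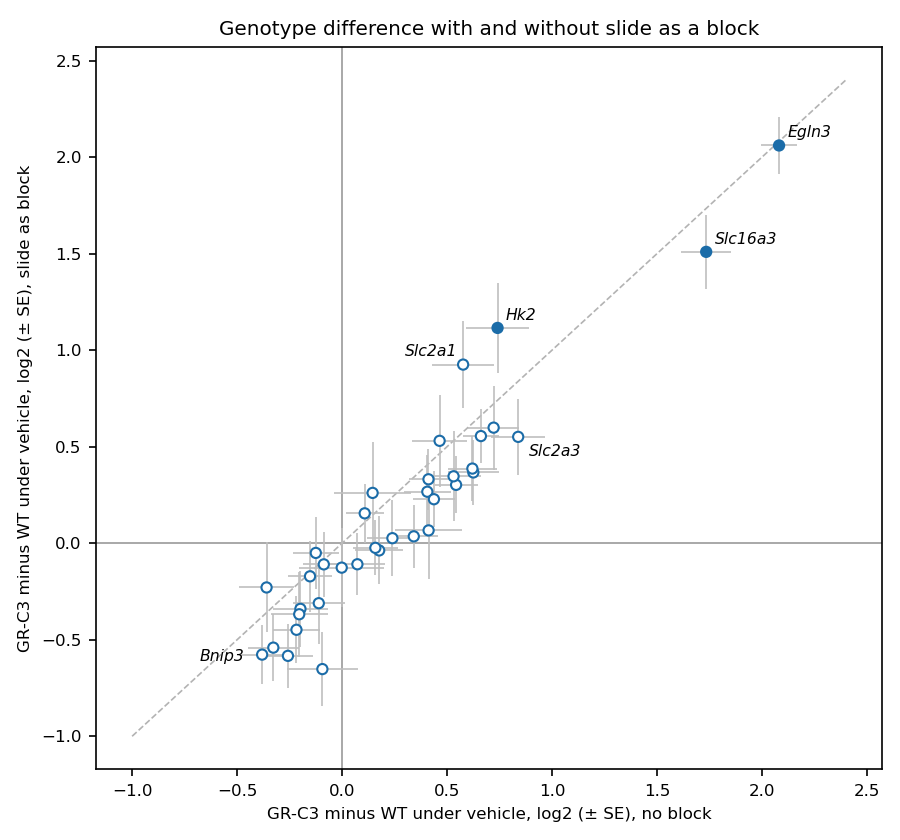
Genotype difference under vehicle of each of the 36 genes from the 11 arrays, fitted without a block (horizontal axis) and with slide as a block (vertical axis), in log2 units with SE bars; filled points passed an adjusted p of 0.05 in the fit with the block, and the dashed line marks equal values. Egln3, Slc16a3 and Hk2 are filled, and the points of Slc2a1 and Bnip3 lie farther from 0 on the vertical axis than on the horizontal.

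With slide as a block the 16 genes called under vehicle kept their sign, and all of them except Hk2, Slc2a1, Ldha and Bnip3 moved toward 0. Under vehicle Slc2a1 stood at 0.93 (adjusted p = 0.051), Slc2a3 at 0.55 (0.146), Pfkfb4 at 0.60 (0.151), Ldha at 0.53 (0.24), Pkm at 0.39 (0.22) and Pfkl at 0.37 (0.25). The smallest values among the 16 genes were 0.23 for Pgam1 and 0.27 for Gpi1 (adjusted p = 0.419 and 0.465). Ddit4 stood at 0.33 and Eno1 at 0.35 (adjusted p = 0.266 and 0.44). Under Dex the block ended the calls of Slc2a1 (0.61, adjusted p = 0.104), Slc2a3 (0.29, 0.348), Pfkfb4 (0.59, 0.105), Pfkfb1 (0.16, 0.541), Pkm (0.40, 0.139), Eno1 (0.31, 0.398) and Pgam1 (0.21, 0.379) as well. The values of P4ha1 and P4ha2 were -0.28 and -0.14 (adjusted p = 0.34 and 0.647).

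Dex changed few of these genes. In WT cells, with 11 arrays, 6 of 36 genes rose and none fell, which is 16.7%, near the 12.2% of all genes called in either direction (5.38% higher and 6.85% lower). The median change of the set was 0.18, against 0.02 over all genes, and 29 of the 36 estimates were positive. Under the slide block the median of the set was 0.052, against -0.061 over all genes. Under normexp it was -0.13, against 0.58. With all 12 arrays none was called (0.12% of all genes were), and the median was 0.13. At an unadjusted p under 0.05 there were then 6 of the 36, beside 3472 of all 20836 genes, a similar share. The 6 genes called with 11 arrays were Bnip3, Slc2a3, Aldoc, Pfkl, P4ha2 and Egln3. In GR-C3 cells limma called none of the 36 with either set of arrays (3.47% of all genes with 11 and 0.101% with 12). There 6 had an unadjusted p under 0.05 with 11 arrays and 4 with 12, beside 3797 and 2466 of all 20836 genes. The median change there was 0.01, and 20 of 36 estimates were positive.

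**Figure D4:**
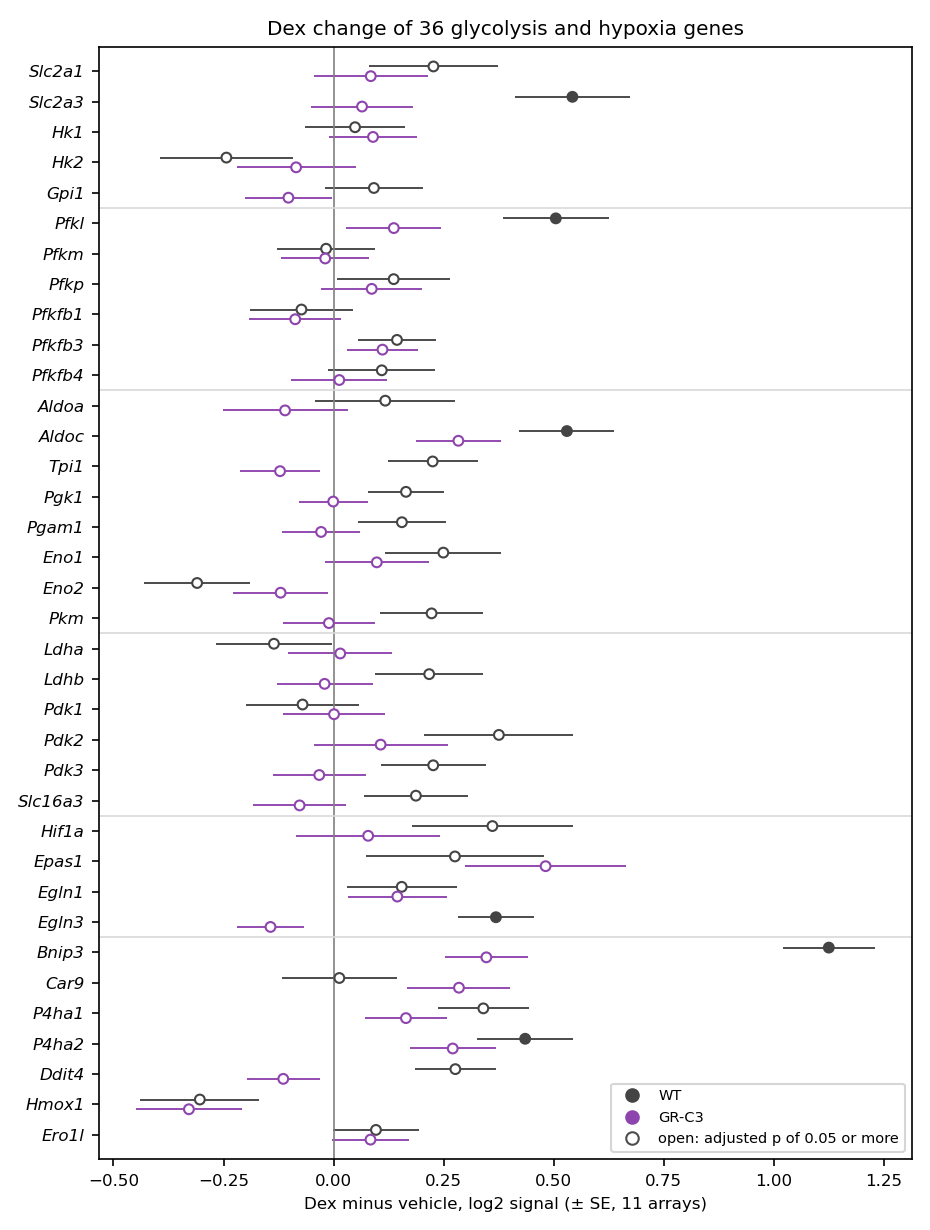
Log2 change with Dex for the 36 genes in WT (black) and GR-C3 (purple) cells from the 11 arrays, with SE bars; filled points passed an adjusted p of 0.05 and grey lines separate the roles. In WT the points of Bnip3 (1.12), Slc2a3 (0.54), Aldoc (0.53), Pfkl (0.50), P4ha2 (0.44) and Egln3 (0.37) are filled, and no GR-C3 point is.

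Bnip3 rose most in WT, by 1.12 ± 0.10 (2.18-fold, adjusted p = 0.000106; 0.81 and 0.138 with 12 arrays). In GR-C3 its change was 0.35 ± 0.094 (adjusted p = 0.0831), although the 3 Dex arrays lay above the 3 vehicle arrays. The difference between the Dex changes, GR-C3 minus WT, was -0.78 ± 0.14 (adjusted p = 0.0323), the 1 call among 36 genes (2.78%, against 1.14% of all genes, 0.322% upward and 0.816% downward). It rests on 2 WT vehicle arrays and kept its call when WT Dex replicate 1 or GR-C3 Dex replicate 1 was left out, but not when any other single array was. It was -0.46 with all 12 (adjusted p = 0.863), where limma called no gene of all 20836. At an unadjusted p under 0.05 there were then 1 of the 36 and 1282 of all genes. With slide as a block the difference was -0.82 (adjusted p = 0.158). Within slide 2, Bnip3 lay 1.04 higher on the WT Dex array than on the mean of 2 WT vehicle arrays, and within slide 4 it lay 0.21 higher on 3 GR-C3 Dex arrays than on 1 vehicle array. The value from the slide block is the second of these less the first, so they are not a separate check. Over the set the difference of Dex changes was negative for 29 of 36 genes with 11 arrays and for 23 with 12, with medians of -0.16 and -0.11, against 0.02 and 0.01 over all genes. With 11 arrays the median of the set was -0.024 under the slide block and 0.19 under normexp. Over all genes these medians were 0.02 and -0.49. Signs over all genes were not counted.

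Aldoc, the brain-type aldolase (chr11:78408037-78408096, mm7), lay at 0.91 and 1.02 on WT vehicle replicates 2 and 3, 1.14 on the array set apart, 1.43, 1.52 and 1.52 in WT Dex, 1.09, 0.97 and 1.30 in vehicle-treated GR-C3 cells and 1.33, 1.44 and 1.44 with Dex. In each genotype the Dex arrays lay above the vehicle arrays. Aldoc rose in WT by 0.53 ± 0.11 (adjusted p = 0.011), its GR-C3 change was 0.28 ± 0.097 (adjusted p = 0.165), and their difference did not pass the test (-0.25, adjusted p = 0.469). Slc2a3 rose in WT by 0.54 ± 0.13 (adjusted p = 0.0238) and Pfkl by 0.50 ± 0.12 (adjusted p = 0.0237), with 0.06 and 0.14 in GR-C3 (adjusted p = 0.796 and 0.523). P4ha2 rose in WT by 0.44 ± 0.11 (adjusted p = 0.0287; -0.12 with normexp) and stood at 0.27 in GR-C3 (adjusted p = 0.187). Egln3 rose in WT by 0.37 ± 0.086 (adjusted p = 0.0214) and its change in GR-C3 was -0.14 ± 0.077 (adjusted p = 0.354), with a difference of -0.51 ± 0.12 (adjusted p = 0.0743). Under the slide block Bnip3 was the single gene of the 6 still called in WT (1.04, adjusted p = 0.00324), while 4.89% of all genes were. The others stood at 0.34 for Slc2a3, 0.47 for Aldoc, 0.31 for Pfkl, 0.45 for P4ha2 and 0.35 for Egln3 (adjusted p = 0.321, 0.0616, 0.292, 0.154 and 0.163). These block values are the differences within slide 2, the only slide with both WT groups, and so rest on its 1 WT Dex array. All calls for Dex in WT with 11 arrays rest on 2 WT vehicle arrays, and leaving out either would leave 1.

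Genes around the pathway were read from lists that share no member with the set. Every Dex change and difference of Dex changes called below was called with 11 arrays only: with 12 arrays limma called none of these lists' genes for Dex in either genotype or for the difference. At an unadjusted p under 0.05 with 12 arrays, Dex in WT then gave 7 of the 18 other glycolysis genes, 1 of the 9 of pyruvate entry, 8 of the 27 further hypoxia genes and 0 of the 12 HIF partners, Dex in GR-C3 gave 2, 2, 3 and 1, and the difference gave 3, 0, 0 and 1. Of all 20836 genes, 3472, 2466 and 1282 had such a p for Dex in WT, Dex in GR-C3 and the difference. Of 18 other isoforms and branch enzymes of glycolysis, 6 were higher and 2 lower in GR-C3 under vehicle, and 8 higher and 7 lower under Dex (44.4% and 83.3% called, against 27.3% and 40.7% of all genes). Slc2a4, the insulin-responsive transporter GLUT4, rose with Dex in WT from -3.03 and -3.06 on WT vehicle replicates 2 and 3 to -1.50, -1.20 and -1.53, a change of 1.63 ± 0.12 (adjusted p = 2.26e-05). In GR-C3 Slc2a4 lay at -2.59, -2.41 and -2.63 under vehicle, all 3 Dex arrays lay above these with the lowest at -2.09, and it rose by 0.51 ± 0.11 (adjusted p = 0.0304), and the 2 changes differed by -1.12 (adjusted p = 0.0124). With 12 arrays these values of Slc2a4 were 1.03, 0.51 and -0.52 (adjusted p = 0.224, 0.615 and 0.92). Txnip, which draws glucose transporters from the cell surface, rose in WT by 1.05 ± 0.16 (adjusted p = 0.00233; 0.76 and 0.168 with 12 arrays), had a change of 0.11 in GR-C3 (adjusted p = 0.706), and differed between genotypes by -1.46 ± 0.14 under Dex (adjusted p = 4.44e-05). Gpd1, which makes glycerol phosphate, and the muscle enolase Eno3 were higher in GR-C3 under vehicle by 0.63 ± 0.14 and 1.04 ± 0.16 (adjusted p = 0.0103 and 0.00127).

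Pyruvate entry into mitochondria was marked by Pdk4, a kinase that shuts pyruvate dehydrogenase and a known glucocorticoid target. It rose with Dex from 1.39 and 1.33 to 3.84, 4.07 and 3.67 in WT and from 0.22, 0.22 and 0.02 to 1.60, 1.59 and 1.66 in GR-C3, and the array set apart stood at 3.45. The change of Pdk4 was 2.50 ± 0.12 in WT and 1.47 ± 0.11 in GR-C3 (adjusted p = 2.23e-06 and 8.81e-05), with a difference of -1.03 (adjusted p = 0.0193). With 12 arrays the changes of Pdk4 were 1.80 and 1.47 and their difference -0.33 (adjusted p = 0.12, 0.225 and 0.95). It was lower in GR-C3 than in WT, with differences of -1.21 ± 0.12 under vehicle and -2.24 ± 0.11 under Dex (adjusted p = 8.98e-05 and 5.6e-07). Pdp1, the phosphatase that opposes these kinases, also rose in both genotypes, by 0.85 ± 0.16 and 0.63 ± 0.14 (adjusted p = 0.00665 and 0.0388; 0.307 and 0.355 with 12 arrays). Of the 9 genes measured on this list, 2 rose with Dex in each genotype (22.2%, against 12.2% and 3.47% of all genes), and 3 were higher and 3 lower in GR-C3 under vehicle (66.7%, against 27.3%), Pdhx and Pdhb of the dehydrogenase complex among the higher (0.41 and 0.31, adjusted p = 0.02 and 0.0256).

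Among 27 further genes known to be induced by hypoxia, 9 were higher and 5 lower in GR-C3 under vehicle and 8 higher and 9 lower under Dex (51.9% and 63% called, against 27.3% and 40.7% of all genes). Their median differences of 0.15 and -0.13 compare with 0.12 and 0.13 over all genes. Stc2, a secreted stanniocalcin, and Tfrc, the transferrin receptor, were higher in GR-C3 under vehicle by 1.29 ± 0.094 and 1.20 ± 0.10 (adjusted p = 1.12e-05 and 3.5e-05). Ndrg1 rose with Dex in both genotypes, by 1.28 ± 0.10 in WT and 0.65 ± 0.091 in GR-C3 (adjusted p = 3.9e-05 and 0.00421; 0.194 and 0.404 with 12 arrays). Ankrd37 rose in WT by 1.36 ± 0.12 (adjusted p = 7.96e-05; 0.73 and 0.382 with 12 arrays) with 0.44 in GR-C3 (adjusted p = 0.0604). Of 12 HIF partners and regulators 2 were called between genotypes under vehicle and 2 under Dex (16.7% each, against 27.3% and 40.7% of all genes). Arnt2 was lower in GR-C3 under vehicle (difference -1.08 ± 0.14, adjusted p = 0.000355) and the HIF competitor Cited2 higher by 0.51 ± 0.11 (adjusted p = 0.00789). Cited2 also fell with Dex in GR-C3, with a change of -0.48 (adjusted p = 0.0291; 0.106 with 12 arrays), and the coactivator Ep300 was lower in GR-C3 under Dex (-0.77, adjusted p = 0.0273).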

How the data were processed

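Per the file headers, the authors deposited 1 Agilent Feature Extraction file per array (software 9.5.3.1, version 9.5 in the submitters' processing notes), with probe positions in build mm7. The values used are the processed signal, a linear intensity that is background-subtracted by the scanner software, per the file headers; the deposited value table holds the same intensity. The 75th percentile of that intensity ran from 884.3 to 1821, and 70.7% to 78.5% of spots were well above background. From it log2(signal) minus the log2 of the 75th percentile of the array was computed from the deposited files, spots of a probe were averaged, 30935 of 41174 probes were kept, those that the scanner called well above background throughout 1 group or more, and the probe with the highest mean stood for each of 20836 genes. The 36 genes had 61 probes, 58 of them kept.

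limma 3.58.1 in R 4.3.3 (lmFit, eBayes) fitted 1 mean per group over all arrays, with Benjamini-Hochberg adjustment. This was done for 12 arrays and for the 11 other than WT vehicle replicate 1 as labelled. The script was tested on simulated data. An exact permutation test of 3 against 3 arrays cannot go below 0.1 and was not used. Of the 36 genes, 22 were called in at least 1 comparison. By rule, values per array are given for the 16 of them with the smallest p in any comparison with 11 arrays and for Hif1a, Slc2a1, Hk2, Ldha and Pgk1 whatever their values, 18 genes in all. Up to 4 called genes with the smallest p are named from each further list. The gene set and the lists were chosen with earlier results of these data known. Sequences come from RefSeq (GRCm38.p6). Alternatives were quantile normalization, normexp background correction with and without repair of outlier local backgrounds, no filter or a strict filter on dim probes, the mean of all probes, slide or replicate number as a block, fewer groups, and leaving out each array. Gapdh is not analysed here, and 1 neural marker is not reported here.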

Additional observations from a re-analysis of the deposited data

Results flagged for a closer look

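The change of Bnip3 with Dex differed between the genotypes by a test of the difference itself. With 11 arrays, the GR-C3 change minus the WT change was -0.78 ± 0.14 (limma with Benjamini-Hochberg adjustment, adjusted p = 0.0323). The WT change was 1.12 and the GR-C3 change 0.35, both upward, and all 3 Dex arrays lay above the vehicle arrays in each genotype. With the array labelled WT vehicle replicate 1 included, where Bnip3 lay at 2.47, the difference was -0.46 (adjusted p = 0.863). With 3 arrays or fewer in each group, single arrays were not tested as outliers.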

How the results depend on the processing

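With 12 arrays, normexp background correction left 1 gene of the 36 called between genotypes under vehicle and 3 under Dex (1.81% and 2.18% of all genes). Slide as a block gave 3 and 4, and 1 for Dex in WT. The array set apart is alone on its slide, so the block takes it out of these estimates. The counts with the block therefore repeat those of 11 arrays by design. With 11 arrays, normexp left 0 for Dex in WT, 0 for the difference of Dex changes, 1 under vehicle and 3 under Dex, and the slide block 1, 0, 3 and 4. The shares of all genes called were then 0.816%, 0%, 1.4% and 4.09% under normexp and 4.89%, 0.173%, 7.82% and 15.5% under the block. The difference of Dex changes also had 0 calls with repaired local backgrounds and with no filter on dim probes (1.08% and 0.448% of all genes). Dex in GR-C3 had 1 call with quantile normalization and 1 with the mean of all kept probes (4.98% and 3.41% of all genes). With only the groups compared in the fit, which holds fewer arrays, Dex in WT had 1 call and the genotypes under Dex 9 (6.07% and 33% of all genes). Under normexp without repair the median of all genes with 11 arrays moved to 0.58 for Dex in WT, 0.29 between genotypes under vehicle and -0.40 under Dex, and signs turned for Pfkfb1 (-0.040 with both sets of arrays), Car9 (-0.29), P4ha2 (0.21) and Slc2a3 (-0.29) between genotypes under Dex and for P4ha2 with Dex in WT (-0.12). Car9 turned to -0.063 under the slide block. The cause was not tested.

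Leaving out each of the 12 arrays gave 0 to 6 calls for Dex in WT (6 without WT vehicle replicate 1), 0 to 0 for Dex in GR-C3, 0 to 1 for the difference, 9 to 16 under vehicle and 8 to 17 under Dex. The share of all genes called was 15.6% at the 9 calls under vehicle and 20.8% at the 8 under Dex. Without WT vehicle replicate 1 it was 12.2% for Dex in WT, 27.3% at the 16 calls and 40.7% at the 17. From 11 arrays the ranges were 1 to 7 (1 without WT vehicle replicate 2 or 3), 0 to 3 (3 without GR-C3 vehicle replicate 3), 0 to 2 (2 without WT Dex replicate 1), 6 to 20 (6 without WT vehicle replicate 3) and 10 to 17 (10 with each GR-C3 Dex array in turn left out). Of all genes, 21.3% were called at those 7 calls, 5.55% at those 3 and 5.68% at those 2. The shares were 33% at those 20 calls, 44.7% at those 17 and 30.3% to 33.5% at those 10. The fits without WT vehicle replicate 2 or 3 held 1 WT vehicle array, and no share is given for them. With replicate number as a block the counts were 0, 0, 0, 13 and 10 with 12 arrays and 7, 0, 1, 18 and 17 with 11. The shares of all genes were 0%, 0.048%, 0.0048%, 24.2% and 28.2% with 12 arrays and 14.8%, 3.1%, 1.32%, 32.3% and 42.3% with 11. The labels do not say whether the replicate numbers pair the samples. Deviations of same-numbered arrays correlated between -0.215 and 0.213 over 18 pairs, 4 of them over 0.1. This cannot settle the question, because each group held 3 arrays and WT vehicle included the array set apart. Slc16a3 kept its genotype calls under every alternative tried, and Egln3 lost its genotype calls under normexp without repair only.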

Other observations

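Of 15 genes of gluconeogenesis and glycogen, 1 rose and 1 fell with Dex in WT, and 1 fell in GR-C3 (13.3% and 6.67% called, against 12.2% and 3.47% of all genes). Between genotypes 1 was higher and 1 lower in GR-C3 under vehicle, and 2 were higher and 2 lower under Dex. These shares, 13.3% and 26.7%, lay below the 27.3% and 40.7% of all genes. With 12 arrays limma called none of the 15 for Dex in either genotype. In each, 1 had an unadjusted p under 0.05, beside 3472 of all 20836 genes in WT and 2466 in GR-C3. Ppp1r3c, which targets a phosphatase to glycogen, fell in both, with changes of -0.84 ± 0.16 in WT and -0.72 ± 0.14 in GR-C3 (limma, adjusted p = 0.00838 and 0.0263; 0.156 and 0.154 with 12 arrays), and was lower in GR-C3 than in WT under vehicle (difference -1.15 ± 0.16, adjusted p = 0.000737). Its levels were -1.74 and -1.33 on WT vehicle replicates 2 and 3, -2.20, -2.60 and -2.32 in WT Dex, -2.66, -2.85 and -2.54 in vehicle-treated GR-C3 cells and -3.27, -3.44 and -3.50 with Dex. Pygl, the liver glycogen phosphorylase, was higher in GR-C3 under vehicle by 0.57 ± 0.13 (adjusted p = 0.00952), and Pcx, the pyruvate carboxylase, rose with Dex in WT by 0.50 ± 0.13 (adjusted p = 0.0356; 0.27 and 0.474 with 12 arrays). G6pc3, a glucose phosphatase, was lower in GR-C3 under Dex (difference -0.47 ± 0.093, adjusted p = 0.00335). None of the 6 pentose phosphate genes was called with 11 arrays, and the smallest p belonged to G6pdx with Dex in WT (0.41, adjusted p = 0.0572).

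Of the 36 genes of the set, 16 had more than 1 kept probe, and some probes gave different values in a fit over all 30935 kept probes of the 11 arrays. Besides those of Ero1l, Epas1, P4ha1 and Aldoa, 1 of the dimmer probes of Hk1 was higher in GR-C3 by 0.60 under vehicle (adjusted p = 0.0177), and 1 of Pfkfb3 by 0.50 under Dex (adjusted p = 0.0483).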
